A study of Mus musculus with 36 samples.

Results

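The transcripts of 10 genes were followed here in fetal mouse NSCs and in the EVs those cells secreted: *Slc2a1*, *Hk2*, *Aldoa*, *Gapdh*, *Pgk1*, *Pkm*, *Ldha*, *Eno1*, *Vegfa* and *Bnip3*. They were taken by name from the 40205 features of the count tables, and all 10 were present. The cells were neural stem cells (NSCs) of the dorsal telencephalon of C57BL/6J fetuses (WT in the sample records, Ai14 reporter mice in the study's methods), grown as neurospheres, which are free-floating balls of dividing cells. For each of 3 pregnancies (sets 3, 4 and 5) the tissue of the female fetuses made 1 pooled culture and that of the male fetuses another, so there were 6 cultures. Each culture was kept for 5 days at 0, 120 or 320 mg/dL ethanol, and gave 1 cell library and 1 EV library per dose, which makes 18 cell and 18 EV libraries. EVs (extracellular vesicles, membrane particles that cells release) were collected from the medium by filtration and ultracentrifugation. A sample pooled several flasks of passaged cells, so no animal is followed on its own. All flasks, those of the controls included, were capped tightly and sealed.

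Glycolysis splits glucose into pyruvate in the cytosol and yields ATP without oxygen. When oxygen is short, the transcription factor HIF-1 is no longer degraded, binds short sites next to its target genes and raises glucose uptake, glycolysis and lactate production, together with signals for vessel growth and with removal of mitochondria. Proliferating neural progenitors are known to rely strongly on glycolysis. Among the 10 genes, *Slc2a1* encodes the glucose transporter GLUT1, *Hk2* the hexokinase that traps glucose in the cell, and *Aldoa*, *Gapdh*, *Pgk1*, *Eno1* and *Pkm* later enzymes of the pathway in that order. *Ldha* encodes lactate dehydrogenase A, which turns pyruvate into lactate, *Vegfa* the vessel growth factor VEGF-A, and *Bnip3* a mitochondrial protein that marks mitochondria for removal. All of them are described as targets of HIF-1.

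Depth differed between the sources. Cell libraries held 26.6 to 55.3 M counts (median 37.8 M, M standing for mega) and EV libraries 0.959 to 5.51 M (median 3.83 M), so a value in EVs carries the larger counting error. Levels are given as CPM, counts scaled to a fixed library total with TMM factors. Of 8 NSC markers, 7 had counts in every library, and *Sox2* had 0 counts in all 36. The reason was not tested, so this 0 is not read as a lack of *Sox2* RNA in the cells. Markers of microglia summed to at most 0.607 CPM in cells, those of endothelium and blood to at most 2.17 and mesenchymal ones to at most 2.42, while neuron markers summed to between 11.7 and 122 CPM. A pair of libraries stood apart for the 10 genes. They were the control cell library of the set 3 male culture and the EV library of the set 5 male culture at 320 mg/dL. For several results, though not all, values without them are given as well. No 2 libraries were identical.

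Most of these enzymes have processed copies elsewhere in the genome, which can take or share their reads. In GRCm39, stretches of at least 150 bases with at least 90% identity to the transcript were found at 225 other places for *Gapdh*, at 10 for *Eno1*, at 9 for *Aldoa*, at 7 each for *Pkm* and *Ldha* and at 3 each for *Pgk1* and *Bnip3*. None was found for *Slc2a1*, *Hk2* or *Vegfa*. The counts of the first 7 genes are therefore uncertain in their absolute level. *Gapdh* also shares 2982 exon bases with *Iffo1* on the other strand, *Aldoa* 2320 with *Gm57854* and *Pkm* 3157 with *Gm49759* on their own strand, and the strand setting of the counting was not given.

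The promoters of 3 of the 10 genes are shown as examples, and a link between their sites and the levels of the genes was not tested. They are the 250 bases before the start of the canonical transcript in the GENCODE annotation, 5′ to 3′ on the strand of the gene in GRCm39, and hold no annotated exon of the gene. Capitals mark ACGTG or its reverse complement CACGT, the core letters of the site that HIF-1 binds. *Bnip3* (chr7:138511254-138511503, minus strand) has 1 such place, read on both strands, *Pgk1* (chrX:105230456-105230705, plus strand) has 2, and *Vegfa* (chr17:46343310-46343559, minus strand) has none within this window.
Bnip3: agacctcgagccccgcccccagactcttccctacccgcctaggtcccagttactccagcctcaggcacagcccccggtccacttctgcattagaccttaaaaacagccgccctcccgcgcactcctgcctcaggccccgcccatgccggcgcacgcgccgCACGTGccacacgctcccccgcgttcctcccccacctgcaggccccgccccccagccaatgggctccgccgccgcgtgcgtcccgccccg
Pgk1: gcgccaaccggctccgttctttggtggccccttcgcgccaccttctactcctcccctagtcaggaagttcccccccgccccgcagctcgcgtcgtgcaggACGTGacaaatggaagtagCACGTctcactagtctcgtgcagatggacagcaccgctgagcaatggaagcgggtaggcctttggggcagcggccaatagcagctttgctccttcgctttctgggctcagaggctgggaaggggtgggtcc
Vegfa: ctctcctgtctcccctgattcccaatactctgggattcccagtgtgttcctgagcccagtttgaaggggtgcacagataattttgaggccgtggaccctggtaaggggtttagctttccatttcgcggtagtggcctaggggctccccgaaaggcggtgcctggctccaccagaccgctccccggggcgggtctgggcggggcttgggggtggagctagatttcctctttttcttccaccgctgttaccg
ACGTG on either strand was present in 5 of the 10 promoters (*Hk2*, *Aldoa*, *Pgk1*, *Ldha* and *Bnip3*), against 18% of the 19251 promoters of protein-coding genes searched in the same way. GCGTG, the other form of the core, was present in 5 of 10 (*Gapdh*, *Ldha*, *Eno1*, *Slc2a1* and *Bnip3*) against 33.5%. At least 1 of the 2 forms was present in 8 of the 10 promoters, against 44.1% of all. The windows of *Hk2*, *Aldoa*, *Pkm*, *Ldha* and *Eno1* overlap annotated exons of the same gene. GC content of the 10 windows ran from 54.4% (*Eno1*) to 72.4% (*Bnip3*), and the shares over all promoters were not matched for it.

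In NSCs, enzymes of glycolysis downstream of hexokinase and lactate dehydrogenase A were the most abundant of the 10 per unit of transcript length. On the scale of median CPM per kilobase over the 18 cell libraries, *Aldoa* stood at 94.4, *Pkm* at 94.1, *Ldha* at 69.1 and *Gapdh* at 59.6. *Pgk1* followed at 27.1, *Eno1* at 25.8 and *Vegfa* at 22.5, and *Slc2a1* at 5.08, *Bnip3* at 2.65 and *Hk2* at 2.14 were lowest. In EVs the order began with *Pkm* at 124, then *Gapdh* at 36.8, *Aldoa* at 35.4 and *Ldha* at 34.5, and ended with *Slc2a1* at 5.12, *Bnip3* at 1.20 and *Hk2* at 0.915. Between libraries of one source, the coefficient of variation in cells ran from 29.1% for *Pkm* and 29.6% for *Aldoa* to 59.9% for *Eno1*, so *Aldoa* and *Pkm*, *Pgk1* and *Eno1*, and *Bnip3* and *Hk2* cannot be ordered against each other.

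In the cells, no ethanol difference of the 10 genes passed the test, which measured it against how that difference varied between cultures. With the culture as a block, 0 of the 10 passed an adjusted p of 0.05 at 120 mg/dL, where 0 of 17792 genes (0%) passed, and 0 of 10 at 320 mg/dL, where 7 of 17792 (0.0393%) passed by edgeR. None of the 10 reached an unadjusted p under 0.05 at either dose, against 444 (2.5%) and 1525 (8.57%) of all genes, and DESeq2 called none of them either. At 320 mg/dL the log2 fold changes ran from -0.10 for *Vegfa* (95% interval -0.40 to 0.20) to 0.20 for *Slc2a1* (-0.29 to 0.70), with a median of 0.03 over the 10 genes against -0.01 over all genes. The intervals were narrowest for *Pkm* (-0.25 to 0.24) and *Aldoa* (-0.33 to 0.18), and widest for *Bnip3* (-0.57 to 0.94), so a doubling on average lies outside the interval of each gene at this dose. Between 320 and 120 mg/dL 0 of 10 and 0 of 17792 genes (0%) passed, with 0 of 10 and 633 of all genes (3.56%) at an unadjusted p under 0.05.

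The levels by dose show the overlap behind these tests. *Slc2a1* lay at 12.4 to 31.3 CPM in the 6 control cell libraries (median 20.5), at 13.9 to 34.3 at 120 mg/dL (median 21.6) and at 9.8 to 42.6 at 320 mg/dL (median 26.5). *Ldha* lay at 62.8 to 275 CPM in controls (median 110), at 69.9 to 198 at 120 mg/dL (median 110) and at 61.9 to 179 at 320 mg/dL (median 124). *Bnip3* lay at 4.25 to 22.1 CPM in controls (median 8.56), at 5.94 to 13.9 at 120 mg/dL (median 10.6) and at 7.29 to 17.4 at 320 mg/dL (median 10.2). For these 3 genes, as for the other 7, the dose groups overlapped almost entirely. For most of the genes the larger part of the spread lay between cultures. The 6 cultures accounted for 91.8% of the variance of log2 CPM of *Hk2*, 89.6% of *Eno1*, 87.2% of *Vegfa* and 85.8% of *Ldha*. The 3 doses accounted for 0.0281% (*Eno1*) to 2.92% (*Bnip3*). The median over all genes tested was 73.6% for cultures and 2.65% for doses. *Bnip3*, with 18%, and *Pgk1*, with 40.4%, had the least of their variance between cultures. *Gapdh*, with 55.4%, and *Slc2a1*, with 65.4%, were also below the median over all genes.

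**Figure D1:**
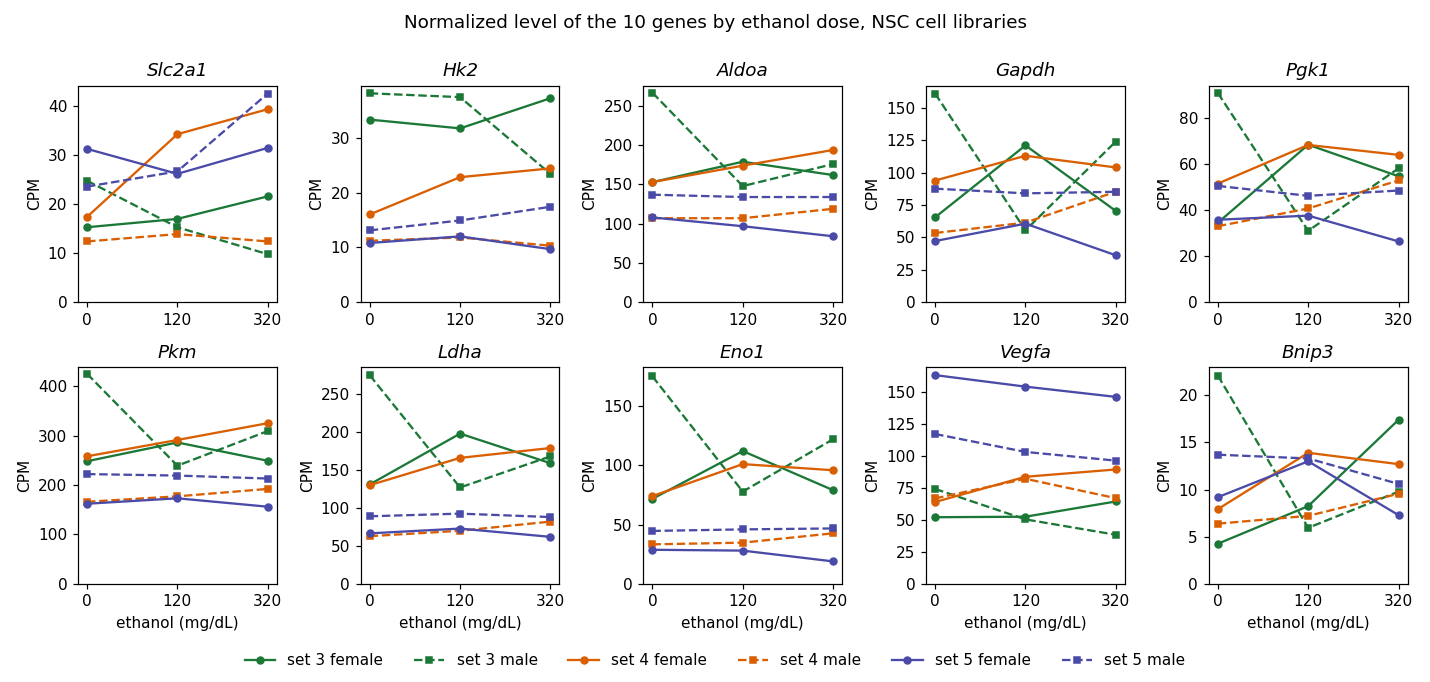
CPM of each of the 10 genes (y axis, linear from 0) in the 18 cell libraries by ethanol dose in mg/dL (x axis). Each line joins the 3 libraries of 1 culture, with colour for the pregnancy set, solid lines and circles for female and dashed lines and squares for male cultures. The set 3 male culture starts highest for 8 genes (*Ldha* 275 CPM, *Pkm* 425 CPM) and lies lower at both ethanol doses, while the set 4 female culture lies above its control for all 10.

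Within 4 of the 6 cultures, however, at least 9 of the 10 genes lay on the same side of the control at both doses, and the direction differed from culture to culture. Each culture has 1 library per dose, so these differences in log2 CPM from the control library of the same culture carry no test, and the differences at both doses share that control library. In the set 3 male culture all 10 genes were lower than in its control at both doses, with a median of -0.98 at 120 mg/dL and -0.67 at 320 mg/dL. In the set 4 female culture all 10 were higher at both doses, with medians of 0.40 and 0.42. The set 3 female culture had 9 of 10 genes higher at 120 mg/dL (median 0.41) and 10 of 10 at 320 mg/dL (median 0.22), and the set 4 male culture 10 of 10 (median 0.16) and 9 of 10 (median 0.28). The set 5 cultures moved less at 120 mg/dL, with 6 of 10 genes higher in the female and 4 of 10 in the male culture. At 320 mg/dL 9 of 10 were lower in the set 5 female culture (median -0.25) and 7 of 10 in the set 5 male culture (median -0.04). Over all 17792 genes the share that was lower lay between 48.5% and 53.9% at 120 mg/dL and between 49.8% and 56% at 320 mg/dL in the 6 cultures.

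In the set 3 male culture *Bnip3* went from 22.1 CPM in its control to 5.94 at 120 mg/dL and 9.78 at 320 mg/dL. *Pgk1* went from 90.9 to 31.0 and 58.1 CPM, and *Gapdh* from 161 to 55.5 and 124 CPM. *Slc2a1*, the glucose transporter, was lowest at the high dose there, with 24.8, 15.3 and 9.8 CPM in dose order. Its sister culture of set 3 females went the other way for *Bnip3*, from 4.25 to 8.24 and 17.4 CPM, a difference of 2.03 on the log2 scale at 320 mg/dL. In the set 4 female culture *Slc2a1* went from 17.4 to 34.3 and 39.4 CPM, and *Vegfa* from 63.9 to 83.6 and 89.3 CPM. *Slc2a1* was higher at 320 mg/dL in 5 of 6 cultures, the set 3 male culture being the exception, but in 2 of the 5 (set 4 male and set 5 female) the difference was 0.008 and 0.009 on the log2 scale. Each of the other 9 genes was higher in 3 or 4 of 6.

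The control library of the set 3 male culture held the highest level of the 18 cell libraries for 8 of the 10 genes, all but *Slc2a1* and *Vegfa*, against 12.9% of all genes (2293 of 17792). Without this library, the average log2 fold change at 320 mg/dL was 0.31 for *Pgk1* (adjusted p = 0.479), 0.24 for *Ldha* (adjusted p = 0.35) and 0.59 for *Bnip3* (adjusted p = 0.375), and still none of the 10 passed. That library was also the highest for 9 of 15 other glycolysis genes and 3 of 7 NSC markers, and its part in the differences of the set 3 male culture was not tested beyond leaving it out.

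**Figure D2:**
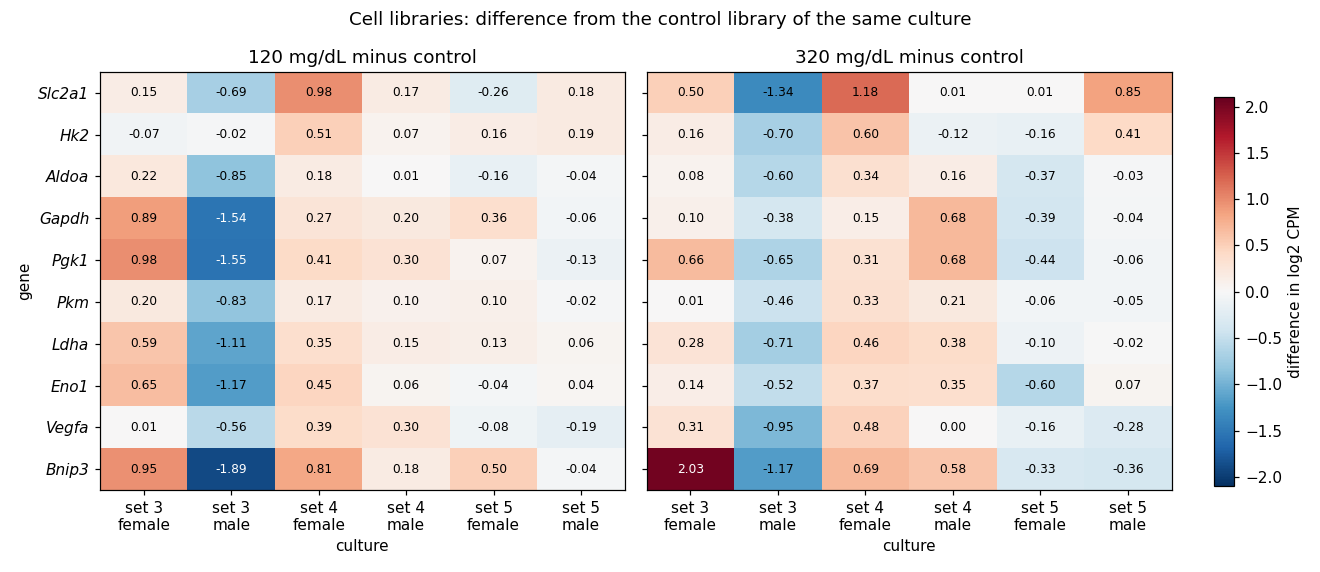
Difference in log2 CPM between an ethanol library and the control library of the same culture in cells, for 120 mg/dL (left) and 320 mg/dL (right), with the 10 genes as rows, the 6 cultures as columns and colour and printed value for the difference (red higher, blue lower). The set 3 male column is below 0 throughout, from -1.89 for *Bnip3* at 120 mg/dL, and the set 4 female column is above 0 throughout.

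Other genes of the pathway matched the direction of the 10 genes in some cultures and not in others. Of 15 other glycolysis genes, 12 were lower at 120 mg/dL and 13 at 320 mg/dL in the set 3 male culture, and 12 were higher at both doses in the set 4 female culture. Of 18 other HIF targets tested in cells, 18 and 17 were lower in the set 3 male culture, and 18 were higher at 320 mg/dL in both the set 3 female (median 0.91) and the set 4 female culture (median 0.46). Of these 18 targets, 2 had their highest level in the set 3 male control library. The 9 genes of oxygen sensing itself (the HIF subunits and the enzymes that mark them) were split in every culture, with 3 to 6 of 9 higher at 320 mg/dL. The 7 genes that bring pyruvate into mitochondria and oxidize it were lower at both doses in the set 3 male culture (7 of 7) and higher in the set 4 female culture (5 of 7 and 7 of 7). In other cultures some lists parted from the 10 genes and some did not. In the set 4 male culture 7 of 15 other glycolysis genes were higher at each dose, but 6 and 5 of 7 pyruvate entry genes were. At 320 mg/dL 10 of 15 other glycolysis genes were higher in the set 5 male culture, where 6 of 7 pyruvate entry genes were lower. In the set 5 female culture at that dose 6 of 7 pyruvate entry genes were higher, and 12 of 15 other glycolysis genes were lower. None of the genes of these 4 lists passed the test at either dose in cells. Some lists outside the pathway were also mostly lower in the set 3 male culture, in dose order. These were 6 and 5 of 7 NSC markers (medians -0.31 and -0.35) and 3 and 4 of 4 astrocyte and oligodendrocyte markers (-0.15 and -0.34). Of 4 neuron markers 2 and 3 were higher, and 2 of 2 endothelial and blood markers were higher at both doses.

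Over the 18 cell libraries, after subtracting the mean of each culture, the 10 genes correlated with the mean of the other 9 at a Pearson r of 0.95 for *Ldha*, 0.91 for *Aldoa*, 0.89 for *Pgk1* and *Pkm*, 0.87 for *Eno1*, 0.79 for *Bnip3*, 0.72 for *Gapdh*, 0.64 for *Vegfa*, 0.53 for *Slc2a1* and 0.36 for *Hk2*. The 6 enzymes from *Aldoa* to *Ldha* formed the tightest set, with r from 0.78 (*Aldoa* and *Gapdh*) to 0.96 (*Pkm* and *Ldha*). *Slc2a1* and *Hk2*, which act at glucose entry, were close to each other (r = 0.84) and to *Vegfa* (0.73 and 0.68), with low values against *Gapdh* (0.11 and -0.08). Without the set 3 male culture, over 15 libraries, *Slc2a1* and *Hk2* were at 0.82, *Vegfa* at 0.50 with *Slc2a1* and 0.54 with *Hk2*, the 6 enzymes between 0.66 (*Aldoa* and *Gapdh*) and 0.91 (*Pkm* and *Ldha*), and the values with the mean of the other 9 ran from 0.43 for *Slc2a1* to 0.89 for *Ldha*. These libraries share cultures and total counts, and the 6 enzymes, like *Bnip3*, have copies elsewhere in the genome, whose part in these values was not tested. Outside the 10, the genes most like their mean over all 18 libraries were *Vdac1* (r = 0.92), *Tsen34* (0.916), *2700062C07Rik* (0.912), *Pgm1* (0.909) and *Dynlt1b* (0.906). *Vdac1* encodes a channel of the outer mitochondrial membrane, and *Pgm1* a phosphoglucomutase that links glycogen to glycolysis. The r values of these genes include the set 3 male culture and were not computed without it.

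The pregnancies differed in which of the 10 genes were high. *Vegfa* lay at 96.2 to 163 CPM in the 6 cell libraries of set 5 (median 131), at 63.9 to 89.3 in set 4 (median 74.5) and at 38.3 to 74.1 in set 3 (median 52.2). All set 5 libraries were above all others for *Vegfa*, the 1 gene of 10 with this pattern, which was the case for 1.38% of all genes (245 of 17792). None of the 10 was above all others in the cell libraries of set 3 (4.46% of all genes) or set 4 (0.0225%), below all others in sets 3, 4 or 5 (2.61%, 0.0337% and 0.787%), or above all others in the EV libraries of sets 3, 4 or 5 (0.0168%, 0.0253% and 0.328%) or below them (0.16%, 0.00842% and 0.135%). The medians of 7 of the 10 genes (*Hk2*, *Aldoa*, *Gapdh*, *Pgk1*, *Pkm*, *Ldha* and *Eno1*) were highest in set 3. The share of all genes with this order was not computed. Set 3 includes the male control library, which held the highest cell level of each of these 7 genes. *Hk2* lay at 23.4 to 38.1 CPM in set 3 (median 35.2), 10.3 to 24.4 in set 4 (median 13.9) and 9.67 to 17.4 in set 5 (median 12.6), and *Eno1* had medians of 95.6, 58.3 and 36.7 CPM in sets 3, 4 and 5. For *Hk2* and *Eno1* the ranges overlapped between sets 3 and 4 and between sets 4 and 5. With 3 pregnancies, each handled as its own set, pregnancy and set cannot be told apart.

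In EVs, no ethanol difference of the 10 genes passed the test either. In edgeR 0 of 10 passed at 120 mg/dL, where 1 of 11880 genes (0.00842%) passed, and 0 of 10 at 320 mg/dL, where 10 of 11880 (0.0842%) passed. By DESeq2 0 of 10 passed as well, and none of the 10 was under an unadjusted p of 0.05 at either dose, against 744 (6.26%) and 1410 (11.9%) of all genes. The largest values at 320 mg/dL apart from *Eno1* were *Vegfa*, with a log2 fold change of 0.41 (95% interval -0.002 to 0.82, adjusted p = 0.422), and *Slc2a1*, with 0.37 (-0.07 to 0.80, adjusted p = 0.515). *Vegfa* was higher in EVs in 5 of 6 cultures at 120 mg/dL and 4 of 6 at 320 mg/dL. It stood at 34.9, 79.1 and 92.1 CPM in dose order in the set 3 female EVs and at 80.5, 99.6 and 109 in the set 5 female EVs, but at 27.6, 13.3 and 18.7 in the set 4 female EVs. Between 320 and 120 mg/dL 0 of 10 and 0 of 11880 genes (0%) passed, with 0 of 10 and 438 of all genes (3.69%) under an unadjusted p of 0.05.

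In EVs the counts per culture were more mixed. In the set 3 male EVs, 7 of 10 genes were lower than control at 120 mg/dL and 4 of 10 at 320 mg/dL, and in the set 4 female EVs 2 and 8 of 10 were lower. Over all genes the lower share was 56.7% and 51.5% in the set 3 male EVs and 49.8% and 57.2% in the set 4 female EVs. In the set 5 male EVs at 320 mg/dL 9 of 10 were higher (median 0.46), against 50.2% of all genes. That library is one of the pair that stood apart, and the 9 include *Eno1* at 9.59. Some EV values rest on few counts: *Bnip3* had 0 to 21 counts per EV library, with 0 in the set 4 female library at 320 mg/dL, and *Hk2* 5 to 43.

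**Figure D3:**
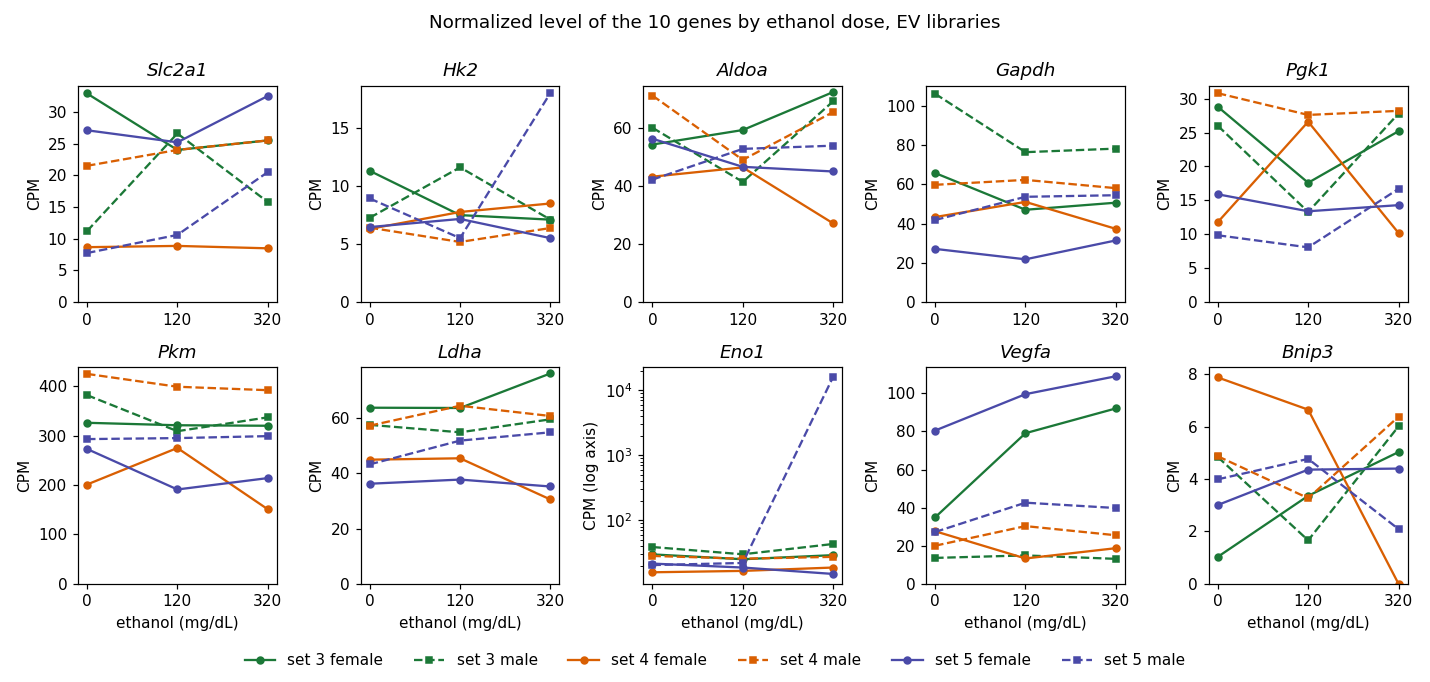
CPM of each of the 10 genes (y axis, linear from 0 except for *Eno1*, which has a log axis) in the 18 EV libraries by ethanol dose in mg/dL (x axis), with lines and markers for the cultures as in the plot of cell libraries. *Eno1* reaches 16032 CPM in the set 5 male library at 320 mg/dL and lies between 14.9 and 43.1 CPM in the other 17.

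One EV library held an extreme level of *Eno1*. The set 5 male library at 320 mg/dL had 38293 counts of *Eno1*, or 16032 CPM, while the other 17 EV libraries had 11 to 128 counts, or 14.9 to 43.1 CPM, and the cell library of the same culture and dose had 46.7 CPM. *Hk2* was also highest there, with 43 counts and 18 CPM against 5.18 to 11.6 CPM in the other 17, whereas *Aldoa* at 54.0, *Pkm* at 299, *Ldha* at 54.8 and *Gapdh* at 54.4 CPM lay inside the range of the others. The log2 fold change of *Eno1* at 320 mg/dL was 1.08 with all libraries (95% interval -1.34 to 3.51, adjusted p = 0.797). Without the set 5 male culture it was -0.04, and without this EV library alone it was -0.02.

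EVs and cells differed for most of the 10 genes. Of the 10, 7 were lower in EVs: *Aldoa*, *Hk2*, *Pgk1*, *Bnip3*, *Ldha*, *Vegfa* and *Gapdh*. *Pkm* was higher, and *Slc2a1* and *Eno1* did not pass. In all, 12302 of 15281 genes (80.5%) passed, 42.2% lower and 38.4% higher in EVs, so a call is common here and the 7 of 10 lower stand beside that share. At an unadjusted p under 0.05 the counts were 8 of 10 and 81.3% of all genes. The median log2 fold change of the 10 was -1.17, against -0.08 over all genes. In bulk RNA, fewer cells of a type and less RNA per cell cannot be told apart, nor can fewer EVs that carry a transcript and less of it per EV.

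*Aldoa* lay at 84 to 267 CPM in cells (median 143) and at 27.2 to 72.5 in EVs (median 53.4). Every EV library was below every cell library, as for 14.8% of all genes (2256 of 15281, or 23.8% with both directions counted), and aldolase A transcripts were lower by a log2 fold change of -1.45 ± 0.13 (adjusted p = 1.3e-12). *Pgk1* lay at 26.4 to 90.9 CPM in cells (median 49.5) and 8.08 to 30.8 in EVs (median 17.2), and *Ldha* at 61.9 to 275 (median 110) and 30.5 to 76.1 (median 54.8). Their ranges overlapped, but in all 18 pairs of EV and cell library from 1 culture and dose the EV library was lower for *Aldoa*, *Pgk1* and *Ldha*. Errors here are SE, and the log2 fold changes were -1.34 ± 0.18 for *Pgk1* (adjusted p = 2.0e-08) and -1.24 ± 0.18 for *Ldha* (adjusted p = 1.3e-07). *Hk2*, at 9.67 to 38.1 CPM in cells (median 16.7) and 5.18 to 18 in EVs (median 7.13), was lower in EVs in 17 of 18 pairs, by 1.42 ± 0.22 on the log2 scale (adjusted p = 3.9e-07). *Bnip3*, at 4.25 to 22.1 CPM in cells (median 9.67) and 0 to 7.88 in EVs (median 4.38), was also lower in 17 of 18, with a log2 fold change of -1.33 ± 0.22 (adjusted p = 8.6e-07). *Vegfa* differed by -1.11 ± 0.25 (adjusted p = 1.2e-04), lower in 16 of 18 pairs, and *Gapdh* by -0.68 ± 0.17 (adjusted p = 5.2e-04), lower in 14 of 18. These errors and adjusted p-values count the doses of a culture as separate libraries, although a culture's libraries share its cells. With counts summed over doses and the culture as a block, all of these genes stayed lower in EVs past the threshold. The adjusted p-values were then larger, at 2.4e-05 for *Aldoa*, 4.7e-05 for *Bnip3*, 5.6e-05 for *Pgk1* and 7.6e-05 for *Hk2*. They were 1.9e-04 for *Ldha*, 9.6e-04 for *Vegfa* and 0.00123 for *Gapdh*. Without the set 3 male control cell library, in the fit over libraries, all of these genes also stayed lower in EVs past the threshold. The log2 fold changes were then nearer to 0, from -1.17 for *Aldoa* to -0.40 for *Gapdh* (adjusted p = 0.0256).

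*Pkm*, the last enzyme of glycolysis, did not follow its neighbours in the pathway. It lay at 156 to 425 CPM in cells (median 230) and at 151 to 425 in EVs (median 304), and was higher in EVs in 14 of 18 pairs, with a log2 fold change of 0.31 ± 0.13 (adjusted p = 0.034). This call was lost without either of 2 EV libraries at 320 mg/dL, the set 5 male (0.12, adjusted p = 0.455) or the set 4 female library (0.17, adjusted p = 0.264). The sign turned when libraries were scaled by their totals alone (-0.45), where the median of all genes moved to -0.88. The call held with median-of-ratios factors (0.39, adjusted p = 0.00695) and in DESeq2 (0.37, adjusted p = 0.00452). It was stronger without the set 4 female culture (0.49, adjusted p = 0.0017) or without the set 3 male control cell library (0.58, adjusted p = 7.3e-05). With counts summed over doses and the culture as a block, *Pkm* was at 0.05 (adjusted p = 0.882), and in the control libraries alone at 0.34 (adjusted p = 0.314). Relative to the median of all genes tested, *Pkm* was at 0.39 with all libraries, 0.43 under library totals and 0.05 when summed over doses, but at -0.77 without a filter and -1.35 in DESeq2, where more genes of low count were tested and the median was 0.46 and 1.73.

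*Eno1* was lower in EVs in 17 of 18 pairs, with the set 5 male pair at 320 mg/dL as the exception. With all libraries the log2 fold change was -0.10 ± 0.96 (adjusted p = 0.93), and without that EV library it was -1.64 (adjusted p = 1.4e-07). Blocking on the EV and cell libraries of each pair gave -1.08 (adjusted p = 0.0186), while counts summed over doses with the culture as a block gave -0.97 (adjusted p = 0.326). *Slc2a1* lay at 9.8 to 42.6 CPM in cells (median 22.6) and at 7.75 to 32.9 in EVs (median 22.8), higher in 9 and lower in 9 of 18 pairs, with a log2 fold change of -0.20 (95% interval -0.61 to 0.20, adjusted p = 0.349). Scaled by library totals *Slc2a1* passed as lower (-0.99, adjusted p = 8.2e-05), with the median of all genes at -0.88, and without a filter it passed as well (-0.82, adjusted p = 6.1e-04).

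**Figure D4:**
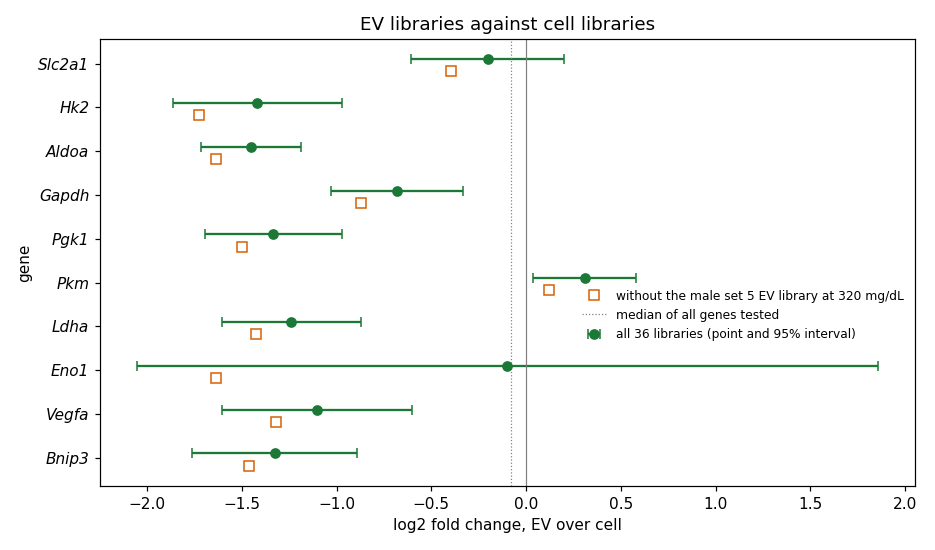
Log2 fold change of EV over cell libraries (x axis) for the 10 genes (y axis), with circles and bars for the estimate and its 95% interval over 36 libraries, open squares for the estimate without the set 5 male EV library at 320 mg/dL, a solid line at 0 and a dotted line at the median of all genes tested. The intervals of 7 genes lie below 0, *Pkm* lies at 0.31, and the square of *Eno1* lies at -1.64, far from its circle at -0.10.

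The other lists differed in direction between EVs and cells, and their counts stand beside 42.2% of all genes called lower and 38.4% called higher in EVs. Of 15 other glycolysis genes, 12 were lower and 1 was higher in EVs, with a median log2 fold change of -0.79. The largest were *Slc16a1* (-3.41) and *Slc16a3* (-1.54), which encode the lactate and pyruvate carriers MCT1 and MCT4, and *Pfkp* (-2.31), a phosphofructokinase. The gene that was higher was *Pfkfb4* (0.54), named after its value was seen, and it was not called higher under library totals or without either EV library that decided *Pkm*. All 7 genes of mitochondrial pyruvate entry were lower (median -1.46), led by *Dld* (-2.69), the dihydrolipoamide dehydrogenase, *Mpc1* (-1.95), a subunit of the mitochondrial pyruvate carrier, and *Pdhx* (-1.82), a part of the pyruvate dehydrogenase complex. Of 17 other HIF targets tested, 9 were lower and 3 higher (median -0.72), led by *Plod2* (-3.47), *Ero1a* (-3.08) and *Anxa2* (-2.05). The 3 higher ones were *Car12*, *Ddit4* and *Pdk1*, also named after their values were seen, and none of the targets was called higher without the set 5 male or without the set 4 female EV library at 320 mg/dL.

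Of 8 genes of oxygen sensing tested, 5 were higher in EVs, 2 were lower and 1 did not pass, with *Hif1an* (3.55), which encodes the HIF asparaginyl hydroxylase, *Egln1* (1.94), a HIF prolyl hydroxylase, and *Vhl* (1.85), the ubiquitin ligase subunit that recognizes hydroxylated HIF, as the largest. *Hif1a* itself was lower (-1.38), as was its partner *Arnt* (-0.80), both named after their values were seen. The median of this list stayed above 0 under library totals (0.39), where 13 of 17 targets and 7 of 7 pyruvate entry genes lay below the median of all genes. Markers of other cell types were higher in some EV libraries than in cells: microglia markers summed to 0 to 11.7 CPM in EVs (0.306 to 0.607 in cells), endothelial and blood markers to 1.21 to 15.3 (0.616 to 2.17) and mesenchymal markers to 1.17 to 18.7 (0.274 to 2.42), with *Cldn5* at 0 in all EV libraries. NSC markers summed to 754 to 1345 CPM in EVs and 1722 to 3664 in cells. Astrocyte and oligodendrocyte markers summed to 78 to 163 in EVs and 114 to 274 in cells, and neuron markers to 12.4 to 64.5 and 11.7 to 122. The part of these markers in the differences between EVs and cells was not tested.

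Whether ethanol changed the split of a transcript between EVs and cells was tested as the change of the EV to cell ratio. By edgeR 0 of 10 genes passed at 120 mg/dL and at 320 mg/dL, as did 0 of 15281 genes (0%) at each dose. *Vegfa* at 320 mg/dL, with a ratio that was higher by 0.51 on the log2 scale (95% interval 0.01 to 1.00, adjusted p = 0.75), was the 1 gene of the 10 under an unadjusted p of 0.05, against 1000 of all genes at that dose (6.54%). At 120 mg/dL none of the 10 and 524 of all genes (3.43%) were. DESeq2 called 0 of the 10 at either dose, and of all genes 2 of 31069 at 120 mg/dL and 60 of 2759 (2.17%) at 320 mg/dL.

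Female and male cultures were compared after summing each culture over the doses, with the pregnancy set as a block and 3 cultures a sex. No gene of the 10 passed in cells, where 7 of 20972 genes (0.0334%) passed, and none in EVs, where 0 of 14847 (0%) passed by edgeR and 13 by DESeq2. An unadjusted p under 0.05 was reached by 0 of 10 and 1632 of all genes (7.78%) in cells and by 1 of 10 and 3076 of all genes (20.7%) in EVs. That gene was *Gapdh* in EVs, lower in females with a log2 fold change of -0.75 (95% interval -1.25 to -0.24, adjusted p = 0.199). *Gapdh* lay at 21.8 to 65.7 CPM in the 9 female EV libraries (median 43.3) and at 41.8 to 106 in the 9 male ones (median 59.7), and the female library was lower in all 9 pairs of the same set and dose. *Vegfa* in EVs lay at 13.3 to 109 CPM in females (median 79.1) and at 13.1 to 42.6 in males (median 25.5), higher in females in 7 of 9 pairs, with a log2 fold change of 1.28 (95% interval -0.06 to 2.61, adjusted p = 0.252). Without set 4 *Vegfa* passed (1.97, adjusted p = 0.0301), and so did *Slc2a1* (1.04, adjusted p = 0.0479), where 441 of 14811 genes (2.98%) passed. When another set was left out neither passed, and the values fell as low as 0.64 for *Vegfa* and -0.21 for *Slc2a1*.

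Whether the ethanol difference itself differed between the sexes was tested as an interaction, and none of the 10 passed. In cells 0 of 10 and 0 of 17792 genes (0%) passed by edgeR at each dose, with 2 of 10 (*Gapdh* and *Pgk1*) under an unadjusted p of 0.05 at 120 mg/dL and 1 of 10 (*Vegfa*) at 320 mg/dL, against 1369 (7.69%) and 3318 (18.6%) of all genes. *Vegfa* differed by 0.58 (females minus males, 95% interval 0.05 to 1.10, adjusted p = 0.243), and *Gapdh* at 120 mg/dL by 0.92 (0.09 to 1.75, adjusted p = 0.574). Without the control cell library of the set 3 male culture these values were 0.34 for *Vegfa* and 0.56 for *Gapdh*, and that of *Pgk1* was 0.47 in place of 0.90. Without set 3 they were 0.27, 0.25 and 0.15. In EVs 0 of 10 and 0 of 11880 genes (0%) passed at each dose, with none of the 10 and 481 (4.05%) and 445 (3.75%) of all genes under an unadjusted p of 0.05. DESeq2 called 0 of the 10 in these comparisons. Of all genes it called 8 of 30506 (0.0262%) at 120 mg/dL and 118 of 3300 (3.58%) at 320 mg/dL in cells, and 2 and 0 of 29604 in EVs.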

How the data were processed

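RNA of NSCs and of their EVs was measured by stranded, ribosomal RNA-depleted RNA-seq in 18 cell and 18 EV libraries. After trimming and removal of duplicates, the authors aligned the reads to mm39 with STAR and counted them with HTSeq, and the deposited values are raw counts per gene. The strand setting of the counting and the annotation version were not given in the sources used here. Counts were analysed as deposited with edgeR 4.0.16 in R 4.3.3 (filterByExpr with minimum count 10 and minimum total 15, TMM, glmQLFit and glmQLFTest, Benjamini-Hochberg adjusted p under 0.05 over all genes tested). Ethanol was tested with the culture as a block, EVs against cells with terms for sex and dose, the EV to cell ratio as an interaction within pairs of libraries, and sex on counts summed over doses with the pregnancy set as a block. CPM are TMM-scaled, and log2 CPM used a prior count of 1. Intervals are 95%. Fits were tested on simulated data.

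The pairing comes from the labels: the libraries of a culture share its cells. Deviations from the dose means had a median correlation of 0.682 between 320 mg/dL and control cell libraries of a culture and 0.439 in EVs (6 of 6 over 0.1 in each), and of 0.0789 between EV and cell libraries that share culture and dose (6 of 18 over 0.1).

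The 10 genes and the other lists were chosen with earlier results of these data known. Named besides the 10 are, for each list and comparison, at most the 3 genes past the threshold with the largest absolute log2 fold change, and the 5 genes most like the mean of the 10. Alternatives were median-of-ratios factors, library totals, no filter, DESeq2 1.42.0, other blocks, only the compared doses, control libraries alone, sums over doses, and leaving out each culture or set. Leaving out 3 single libraries was added after the data were seen. Positions, promoters and copies were taken from GRCm39 with the GENCODE annotation and minimap2 2.31. Each culture and dose has 1 library. P-values of the ethanol tests, the ratio included, therefore measure how the dose difference varied between cultures. Those of EVs against cells measure the spread between libraries, with the 3 doses of a culture counted as separate libraries. Those between the sexes measure how the sex difference varied between pregnancy sets.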

Additional observations from a re-analysis of the deposited data

Results flagged for a closer look

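Within the 6 libraries of each source and dose, the highest or lowest was compared with the rest by Dixon's criterion, which marks about 1 group in 20 by chance. It marked 8 of 60 groups. Of these, 5 came from 1 library, the control cell library of the set 3 male culture: *Aldoa* at 267 CPM (the others 107 to 153), *Pgk1* at 90.9 (33 to 51.5), *Pkm* at 425 (162 to 258), *Ldha* at 275 (62.8 to 131) and *Eno1* at 175 (28.7 to 74). These marks are not separate observations, since the genes move together. In the set 5 male EV library at 320 mg/dL, *Eno1* was at 16032 CPM (the others 14.9 to 43.1) and *Hk2* at 18 CPM (5.51 to 8.49). In the set 5 female EV library without ethanol, *Vegfa* was at 80.5 CPM (13.6 to 34.9).

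No gene of the 10 had all female cultures moving one way and all male cultures the other in any of 40 combinations of gene, source and dose.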

How the results depend on the processing

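None of the 10 genes passed for ethanol or for the ratio under any alternative run, except *Eno1* between 320 and 120 mg/dL in EVs without a filter (1 of 10, log2 fold change 1.31, adjusted p = 0.0284). Without a filter *Eno1* also passed in the sex difference of ethanol at 320 mg/dL in EVs (1 of 10, -4.325). Between the sexes in EVs, 2 of 10 passed without a filter (*Eno1* -2.36, *Vegfa* 1.16), 1 of 10 in a comparison of 9 against 9 libraries (*Vegfa* 1.37, adjusted p = 0.0255), and 0 to 2 when a set was left out, 2 without set 4. These *Eno1* calls include the set 5 male EV library at 320 mg/dL (38293 counts), and no unfiltered fit was run without it. With the filter, leaving out a culture gave 0.14 to 1.74 for *Eno1* between 320 and 120 mg/dL. Leaving out a set gave -7.68 to -0.001 for the sex difference of ethanol at 320 mg/dL and -4.27 to -0.58 between the sexes. Between EVs and cells, 7 to 8 of 10 passed when a culture was left out, and *Aldoa*, *Hk2*, *Pgk1*, *Bnip3*, *Ldha*, *Vegfa* and *Gapdh* were lower past the threshold under every alternative. *Pkm* turned to -0.45 under library totals and to -0.30 without a filter (adjusted p = 0.0875), and ranged from 0.16 to 0.49 when a culture was left out, with no call without the set 3 female, set 3 male, set 4 male or set 5 male culture. Summed over doses it was 0.05 (adjusted p = 0.882), and in control libraries alone 0.34 (adjusted p = 0.314). *Pkm* stayed higher past the threshold with median-of-ratios factors (0.39), in DESeq2 (0.37) and without the set 3 male control cell library (0.58). *Eno1* passed as lower in control libraries alone (-1.28) and without the set 5 male culture (-1.52), with no adjusted p given by DESeq2, but not when summed over doses (-0.97, adjusted p = 0.326). *Slc2a1* passed as lower under library totals (-0.99) and without a filter (-0.82). The replicate block of EV and cell pairs gave -1.08 for *Eno1* and changed no other call of the 10, and removing the replicate block of culture from the ethanol tests left 0 of 10. Calls over all genes moved more: at 320 mg/dL DESeq2 called 94 in cells and 267 in EVs, against 7 and 10 by edgeR, edgeR without a filter 0 and 207, and without the block 0 and 0. Leaving out a culture gave 0 to 1 in cells and 0 to 19 in EVs, and leaving out the control library of the set 3 male culture 38 in cells. At 120 mg/dL in EVs no filter gave 157 against 1, and between the sexes in EVs no filter gave 1097, 9 against 9 libraries 1224 and leaving out set 4 gave 441, against 0. Between EVs and cells no filter gave 22029 and DESeq2 23256, against 12302. The causes were not tested. Counts per EV library as low as 0 for *Bnip3* and 5 for *Hk2* and *Slc2a1* limit what these libraries can show for those genes.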
